A study of Mus musculus with 38 samples.

Results

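The 10 imprinted genes H19, Igf2, Kcnq1ot1, Igf2r, Airn, Peg3, Peg10, Dlk1, Meg3 and Snrpn were described by their contact with the nuclear periphery in mouse embryonic stem (mES) cells. They were found by symbol among the 78202 genes of the gene tables, each symbol matched 1 gene, and all 10 were among the 70381 genes that passed a filter on low values. An imprinted gene is transcribed from only 1 parental chromosome, because a nearby imprinting control region carries DNA methylation on 1 parental copy and not on the other. At several of these loci a long noncoding RNA made from the unmethylated copy accompanies the silence of neighbouring protein-coding genes on the same chromosome. Such genes are well known in mES cells, where imprints can be lost in culture. The reads were not split by parent, so every value below sums the maternal and the paternal copy. Whether 1 copy was silent in these cells was not tested.

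The measurements were CUT&RUN libraries, in which an antibody guides a nuclease to its target and the DNA cut free is sequenced. LAP2B (a lamina-associated protein set in the inner nuclear membrane) was profiled in wild-type (WT) cells, in LBRKO cells that lack the lamin B receptor (Lbr), in TKO cells that lack all lamins (Lmna, Lmnb1 and Lmnb2) and in QKO cells that lack the lamins and Lbr. LMNB1 (lamin B1, the main protein of the lamina beneath the membrane) and IGG (a control antibody with no target in the nucleus) were profiled in WT cells only. Each genotype was sampled as naive cells, kept with 2i inhibitors and LIF for 48 h, and as EpiLCs, a model of the early post-implantation epiblast made by 48 h with FGF at 20 ng/mL and Activin A at 12 ng/mL. There were 3 libraries of 200000 cells in each of 12 groups, 36 in all, and 2 H3K9me3 samples were not analysed here. WT and TKO are separate lines from littermates, QKO is 1 clone made from TKO and the LBRKO clones were made from WT, so that genotype and line cannot be told apart. The methods also give trisomy of chromosome 8 in TKO and, in part of the WT cells, of chromosomes 6 and 8, and of these chromosomes only 6 holds a gene of the set, Peg10.

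Each gene carries a coverage signal scaled to a yeast spike-in and added up over all 1 kb bins it touches. The recovered reads over genes ran from 12608484 to 41198406 among the 24 LAP2B libraries, from 29522895 to 37189077 among the 6 LMNB1 libraries and from 12028659 to 45689196 among the 6 IGG libraries, with overlapping genes counted more than once. The values are used as 3 quantities. The relative value is a gene's value divided by that of its library's median tested gene, the level per bin is the value per 1 kb bin divided by the library median of that quantity, and the spike-in value is the deposited one. Only the level per bin compares genes of different length, and log2 changes are differences of log2(relative value + 0.1) unless the spike-in scale is named. Reads come from genomic DNA, so cell type markers cannot be read from them, and coverage summed over 1 kb bins does not show a frameshift. Lbr had relative values of 6.28 to 7.18 in naive QKO cells against 3.38 to 4.54 in naive WT cells, which says nothing of its protein. Lmna had 7.7 to 29.6 in naive TKO and 21.9 to 39 in naive QKO cells against 3.27 to 7.64 in WT, and Lmnb2 3.41 to 4.2 and 11.0 to 15.5 against 1.43 to 2.91, so none of these genes checks its genotype. Replicates of a group are separate libraries, and nothing says that they came from separate cultures, so p-values measure the spread between libraries.

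The genes lie in 7 places on 4 chromosomes (GRCm39, GENCODE M39 extents). On chromosome 7, H19 (chr7:142129262-142133957, 5 bins) and Igf2 (chr7:142204503-142220694, 17 bins) form the cluster in which a fetal growth factor and a noncoding RNA share enhancers, and Kcnq1ot1 (chr7:142731402-142850327, 120 bins) is the long noncoding RNA read antisense from within Kcnq1, all of whose bins it shares with that gene. Peg3 (chr7:6706882-6733468, 28 bins), a zinc finger gene, starts beside Usp29 and shares 1 bin with it. Snrpn (chr7:59630427-59820763, 191 bins), of the Prader-Willi syndrome region, encodes a splicing factor and holds Snurf (10 bins) within it. Igf2r (chr17:12901293-12988614, 88 bins), the receptor that clears Igf2, overlaps the antisense noncoding RNA Airn (chr17:12960198-13079299, 120 bins) over 29 bins. Dlk1 (chr12:109418749-109429262, 12 bins), a Notch-like membrane protein, and Meg3 (chr12:109506877-109538165, 33 bins), a maternally expressed noncoding RNA, share the control region that lies between them. Peg10 (chr6:4747306-4760517, 14 bins) derives from a retrotransposon and shares 1 bin with Sgce. Values of genes that share bins are not independent.

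The windows before 3 gene starts are shown because the 3 loci profiled below are laid out by distance from them: Meg3 (chr12:109506627-109506876, plus strand), Snurf inside Snrpn (chr7:59654798-59655047, minus strand) and Peg3 (chr7:6733469-6733718, minus strand). Each is the 250 bases before the annotated start, read from GRCm39 in the gene's direction, with CG dinucleotides, the sites of DNA methylation, in capitals.
Meg3: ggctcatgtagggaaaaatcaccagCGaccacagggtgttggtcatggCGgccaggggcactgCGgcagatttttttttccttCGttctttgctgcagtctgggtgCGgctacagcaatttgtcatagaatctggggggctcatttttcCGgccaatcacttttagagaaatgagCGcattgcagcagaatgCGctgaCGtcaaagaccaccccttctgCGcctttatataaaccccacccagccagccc
Snurf: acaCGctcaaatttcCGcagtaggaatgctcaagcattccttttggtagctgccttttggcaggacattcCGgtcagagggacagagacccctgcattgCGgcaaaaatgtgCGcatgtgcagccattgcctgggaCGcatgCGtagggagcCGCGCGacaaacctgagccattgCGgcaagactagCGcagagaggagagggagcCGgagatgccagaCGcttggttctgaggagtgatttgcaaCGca
Peg3: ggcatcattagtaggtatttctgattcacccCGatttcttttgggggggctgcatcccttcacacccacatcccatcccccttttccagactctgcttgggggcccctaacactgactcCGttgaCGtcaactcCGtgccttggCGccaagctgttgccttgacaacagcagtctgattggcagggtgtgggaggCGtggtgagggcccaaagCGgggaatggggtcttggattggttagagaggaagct
The Meg3 window held 10 CG, the Snurf window 15 and the Peg3 window 7, where the median of 78128 gene starts was 3. The letters TGCCGC, the core of the motif known for ZFP57, a protein that keeps imprints methylated, were found on either strand 1 time in the Meg3 window, 2 times in the Snurf window and not in the Peg3 window. Such a match was present before 5.23% of all gene starts. It describes the letters and says nothing of binding.

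In naive WT cells Snrpn stood apart from the other imprinted genes at the lamina. Its level per bin with LMNB1 was 1.57 ± 0.29 (SD, n = 3), at percentile 74.6 of all genes tested, and the libraries did not overlap those of Peg3, the next gene, at 1.1 ± 0.0149. Peg3 in turn lay above Igf2r at 0.905 ± 0.108, and from Igf2r down each gene overlapped its neighbour in the order. The lowest levels were those of Kcnq1ot1 at 0.533 ± 0.0755, H19 at 0.537 ± 0.186 and Igf2 at 0.591 ± 0.196, at percentiles 16.2, 16.5 and 21.2. With IGG the order was another one: Snrpn was the lowest at 0.647 ± 0.0386, percentile 8.51, apart from Kcnq1ot1 at 0.891 ± 0.0606, and the other 8 genes lay between 0.963 and 1.12. With LAP2B in naive WT cells Snrpn was again first, at 1.1 ± 0.148, but every gene overlapped the next in the order, down to Igf2 at 0.59 ± 0.112. The 3 antibody tables were normalised separately, so these levels are set side by side without a test.

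**Figure D1:**
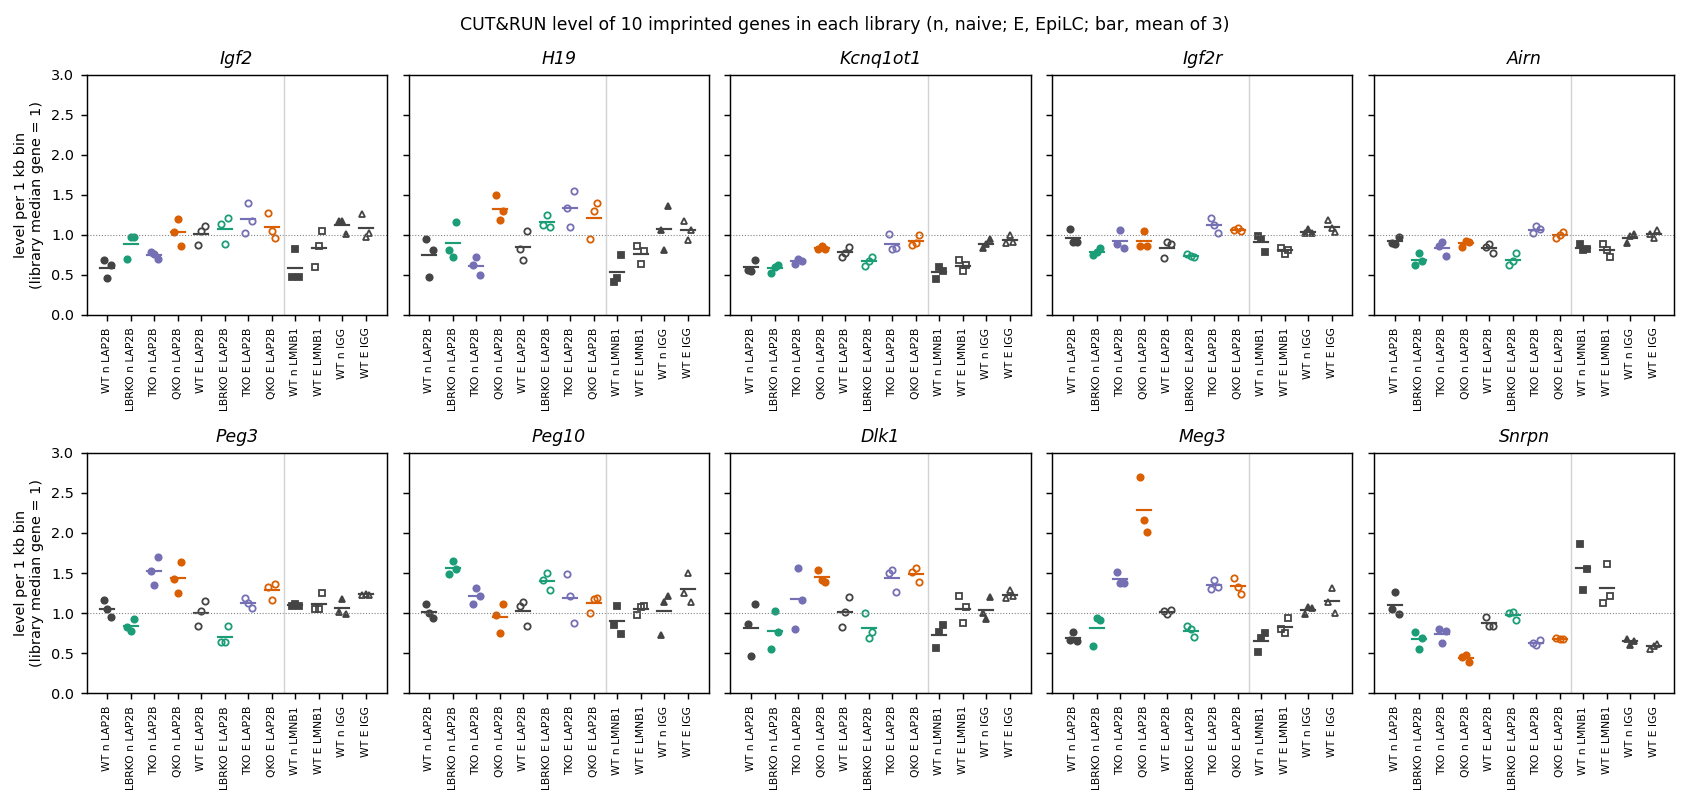
Level per 1 kb bin of each imprinted gene in each of 36 libraries (vertical axis, library median gene = 1; horizontal axis, groups, n for naive and E for EpiLC; circles LAP2B, squares LMNB1, triangles IGG; bars are means of 3 libraries). Naive QKO libraries lie highest for Meg3, at 2.02 to 2.70, and lowest for Snrpn, at 0.389 to 0.48.

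LAP2B over these genes differed between each mutant and WT in naive cells, in both directions. On the relative scale 6 of 10 genes were called in LBRKO cells (2 higher, 4 lower; adjusted p under 0.05 in limma), against 56.8% of all genes tested, of which 28.5% were higher and 28.3% lower. In TKO cells 4 of 10 were called (2 higher, 2 lower) against 49.8% (21.7% and 28.1%), and in QKO cells 7 of 10 (3 higher, 4 lower) against 75.9% (31.7% and 44.2%). The mutant and WT libraries did not overlap at 5 genes in LBRKO, 4 in TKO and 8 in QKO cells, against 57.3%, 51.2% and 75.6% of all genes. These shares lie near those of all genes. The median log2 change of the 10 genes was -0.0879 for LBRKO, 0.102 for TKO and 0.16 for QKO, where that of all genes tested was 0.0328, -0.108 and -0.281. All 3 comparisons use the same WT libraries.

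The centring of the libraries matters for the small changes in QKO cells. Scaled by the median level per bin in place of the median gene, an alternative chosen after the data were seen, the median change of all genes moved from -0.281 to -0.0249 and 6 of the 10 genes were called higher and 1 lower, against 37.8% and 37% of all genes. Igf2r, Airn and Peg10 then lost their calls, H19, Kcnq1ot1 and Peg3 gained one as higher, and Meg3, Igf2 and Dlk1 stayed higher and Snrpn lower. In LBRKO cells both scalings called 2 higher and 4 lower and centring on the mean gene 2 and 2, and in TKO cells the split went from 2 and 2 to 3 and 1, or to 6 and 1 when libraries were centred on the mean gene. Of all genes, the per-bin scaling called 30.8% higher and 26.4% lower in LBRKO cells and 25.4% and 23.4% in TKO cells. The shares of all genes with the mean-gene centring were not counted.

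**Figure D2:**
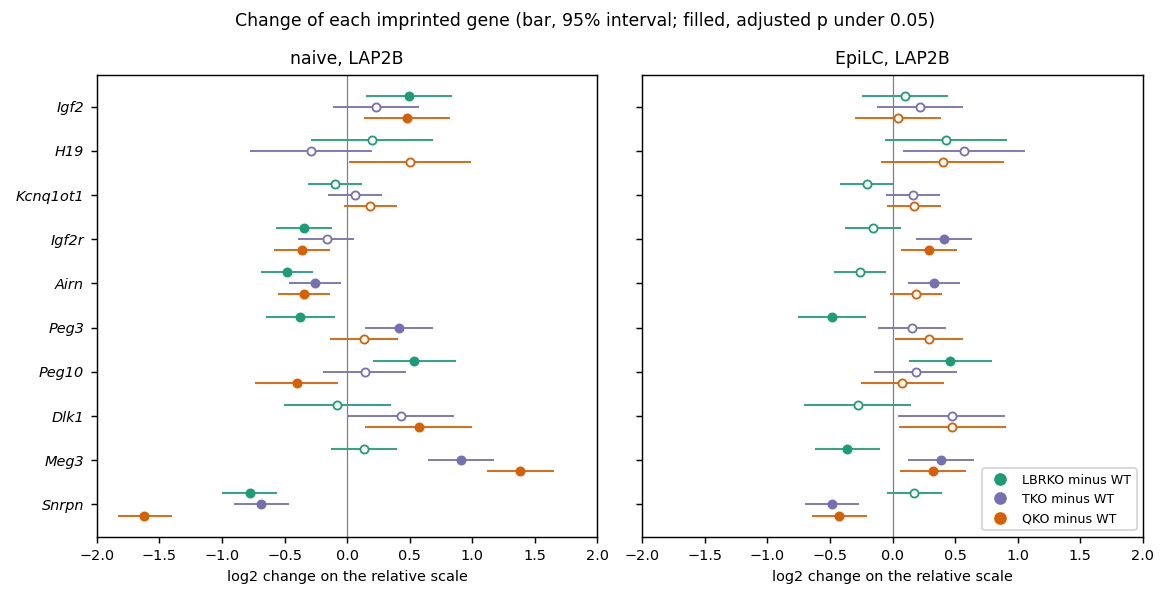
Log2 change of LAP2B on the relative scale for each imprinted gene (horizontal axis) in LBRKO, TKO and QKO against WT, in naive cells (left) and EpiLCs (right); points are estimates from 3 libraries a group, bars 95% intervals and filled points adjusted p under 0.05. Snrpn in naive QKO cells, at -1.62, and Meg3, at 1.38, lie farthest from 0.

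Snrpn fell in all 3 mutants in naive cells. Its relative values were 33.3, 40.0 and 30.9 in WT cells, 23.6, 16.5 and 20.8 for LBRKO cells, 23.6, 18.7 and 22.3 for TKO cells and 11.2, 12.7 and 9.91 for QKO cells. No mutant library reached the WT range, and the QKO libraries lay below those of both other mutants. The log2 change was -0.78 ± 0.11 (SE; adjusted p = 2.75e-08) in LBRKO, -0.69 ± 0.11 (adjusted p = 7.55e-07) in TKO and -1.62 ± 0.11 (adjusted p = 3.47e-19) in QKO cells. QKO cells lay 0.93 below TKO cells on the log2 scale (SE 0.11; adjusted p = 3.24e-10). These 4 calls held without any 1 library and under every other setting tried on the relative scale. The level per bin in naive QKO cells, 0.441 ± 0.0467, was at percentile 11.7, where IGG in naive WT cells was at percentile 8.51.

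The fall was uneven along the gene. Snurf, the first coding exons of the same transcription unit at the imprinting centre, covers 10 of the 191 bins, and since values are sums over bins the other 181 could be computed by subtraction. Snurf itself did not pass the test in LBRKO cells (log2 change 0.17, adjusted p = 0.455) or TKO cells (0.27, adjusted p = 0.23), and fell by 0.64 on the log2 scale in QKO cells (adjusted p = 0.00183). Per bin, the log2 ratio of Snurf to the rest of Snrpn was 0.363, 0.157 and -0.0753 in the naive WT libraries. It was 0.946, 1.21 and 1.41 for LBRKO, 1.23, 1.12 and 1.25 for TKO and 1.28, 0.909 and 1.36 for QKO libraries, so that every mutant library lay above every WT library. The difference from WT was 1.04 in LBRKO, 1.05 in TKO and 1.04 in QKO cells (exact permutation test, 2-sided, p = 0.1 each, the smallest that 3 against 3 libraries allow; 0.1 adjusted over 6 tests). The ratio was chosen after the values were seen. In LBRKO and TKO cells its rise came with levels per bin of the rest of Snrpn of 0.629 ± 0.111 and 0.69 ± 0.083 against 1.09 ± 0.146 in WT cells, while Snurf was at 1.43 ± 0.255 and 1.59 ± 0.263 against 1.23 ± 0.252. For comparison the log2 ratio was 0.0818 ± 0.0877 with LMNB1 and 0.626 ± 0.123 with IGG in naive WT cells.

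Of the 9 listed genes of the Snrpn cluster, Snrpn and Snurf included, 9 fell in QKO cells, 7 in LBRKO cells and 4 in TKO cells, and none rose, where 44.2%, 28.3% and 28.1% of all genes fell. Atp10a, a phospholipid-moving ATPase at the far end of the region, fell by 2.03 on the log2 scale in QKO cells (SE 0.10) and by 1.17 in LBRKO cells. Snhg14, the long host transcript of the snoRNAs downstream of Snrpn, fell by 1.35 in LBRKO cells, the largest fall of the whole list there. All 9 neighbours within 500 kb of the Snrpn start that share no bin with it had a median change of -1.87 in QKO cells, and 8 of them fell.

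Meg3 went the other way in cells without lamins. Its relative values were 3.63, 4.2 and 3.54 in naive WT cells, 3.12, 4.88 and 4.71 for LBRKO cells, 7.66, 7.02 and 6.87 for TKO cells and 11.5, 9.82 and 8.87 for QKO cells. The LBRKO libraries overlapped WT, and the TKO and QKO libraries lay above every WT library and apart from each other. The log2 change was 0.91 ± 0.13 in TKO cells (adjusted p = 9.74e-08) and 1.38 ± 0.13 in QKO cells (adjusted p = 8.55e-14), and 0.14 ± 0.13 in LBRKO cells, with a 95% interval of -0.13 to 0.40. QKO cells lay 0.48 ± 0.13 above TKO cells (adjusted p = 0.00188). The 3 calls held without any 1 library and under every other setting on the relative scale. On the spike-in scale none of these 3 differences was called, and by estimate QKO cells lay slightly below TKO cells. In naive QKO cells Meg3 was at 2.29 ± 0.362 per bin, percentile 80.5, against 0.696 ± 0.0645 in WT cells and 1.04 ± 0.0439 with IGG.

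Around Meg3 the highest estimates in QKO cells lay just before the gene. The noncoding gene Gm34081, whose span reaches from -47.4 to -0.872 kb relative to the Meg3 start, rose by 1.42 in QKO and 0.83 in TKO cells. Gm27528, in 3 bins at -10.1 to -8.05 kb that lie within the span of Gm34081, rose by 2.02 in QKO and 1.03 in TKO cells. Gm55095, in 1 bin just inside Meg3, 0.174 kb from its start, rose by 1.14 in QKO cells (adjusted p = 0.000367), and Mir770, in 1 bin 23.2 kb downstream, had a change of 0.43 that did not pass the test. These small genes were picked after their values were seen, and a single bin holds few reads. Farther downstream Rtl1, a retrotransposon-derived gene in 28 bins from 48.8 to 75.1 kb, rose by 1.1 in QKO cells (adjusted p = 4.77e-07), and the noncoding RNAs Rian and Mirg rose by 0.54 and 0.51. Rian shares bins with Rtl1, and Rtl1 started from a low level per bin in naive WT cells, 0.296 ± 0.0912. Dlk1, which begins at -88.1 kb, rose by 0.57 ± 0.21 in QKO cells (adjusted p = 0.0142), from relative values of 1.72, 0.929 and 2.20 to 2.38, 2.34 and 2.22. Without WT library 2 the Dlk1 change was 0.24 and was not called. The 86 neighbours of Meg3 within 500 kb had a median change of 0.434 in QKO cells, 23 of them rose and none fell, where 31.7% of all genes rose and 44.2% fell, and 96.5% of the neighbours lay below Meg3. Several of these neighbours, microRNA genes downstream of Meg3, lie in the same bin and repeat its value, so the counts are not of independent values. The median over chromosome 12 in the same comparison was -0.363.

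**Figure D3:**
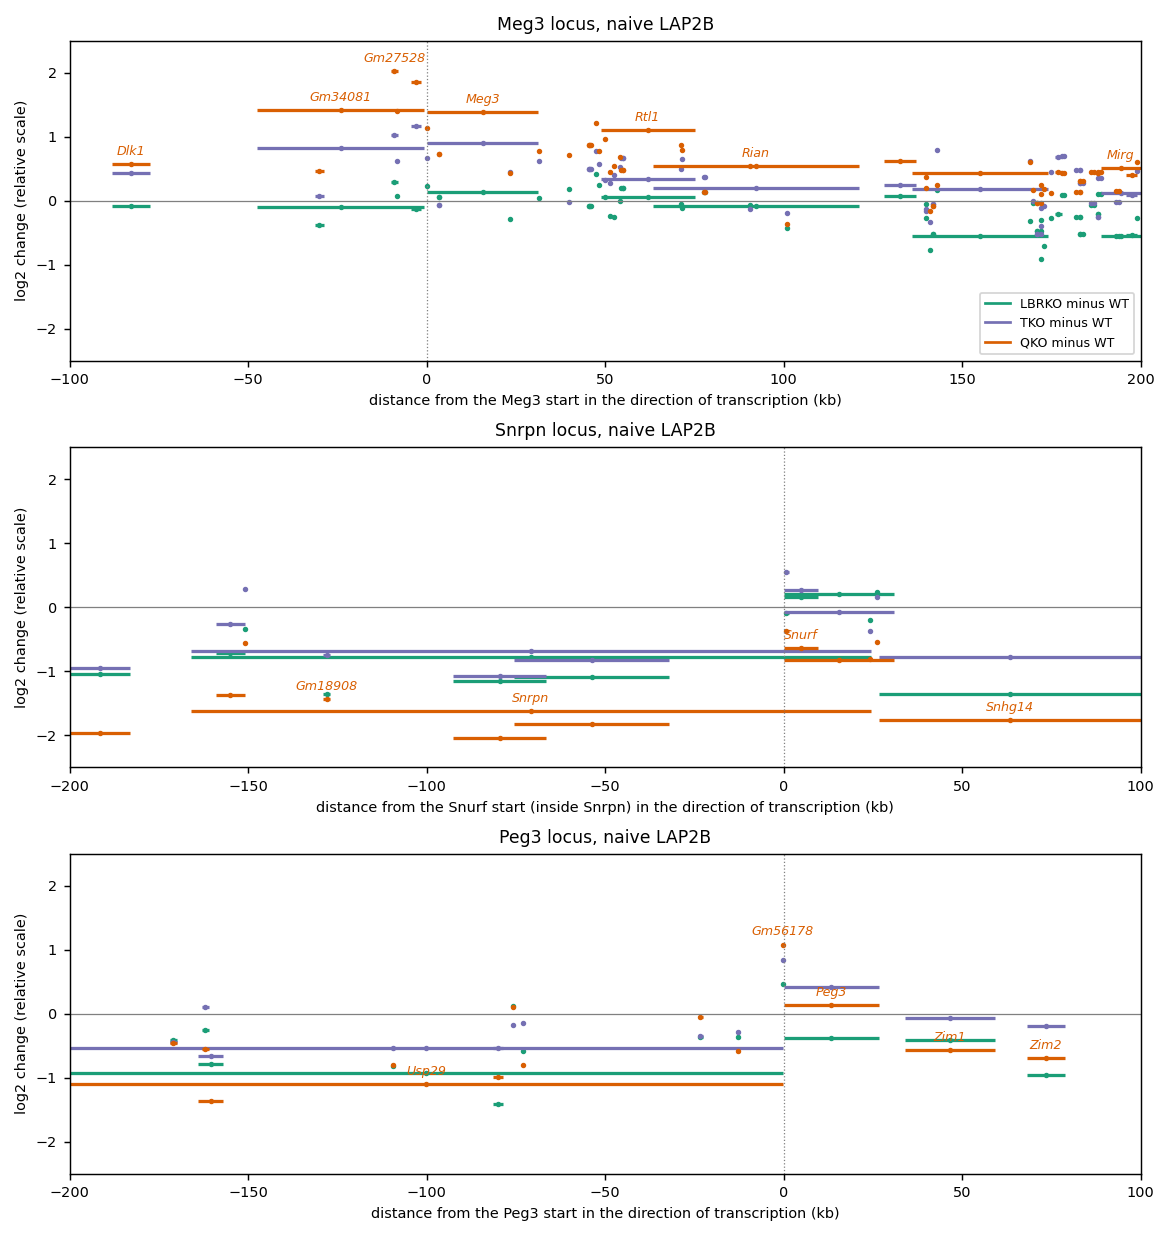
Log2 change of naive LAP2B on the relative scale (vertical axis) of each tested gene around Meg3, Snrpn and Peg3 against distance in kb from the start of Meg3, Snurf and Peg3 in the direction of transcription; each line spans a gene, each dot is its middle, and colours are LBRKO, TKO and QKO against WT. In QKO cells Gm27528 before Meg3 is at 2.02, Snurf lies above the rest of Snrpn at -0.64, and Usp29 at -1.1 and Peg3 at 0.14 meet at the Peg3 start.

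At Peg3 the 2 genes that share a start differed. Peg3 had relative values of 5.42, 4.86 and 4.35 in naive WT cells, 3.70, 3.42 and 4.09 for LBRKO cells, 6.55, 5.84 and 7.18 for TKO cells and 5.18, 4.83 and 6.10 for QKO cells. It fell by 0.37 in LBRKO cells (SE 0.14; adjusted p = 0.0168), rose by 0.41 ± 0.14 in TKO cells (adjusted p = 0.01) and overlapped WT in QKO cells, at 0.14 ± 0.14. The LBRKO call was lost without LBRKO library 2 (log2 change -0.31) or WT library 1 (-0.30) and when libraries were centred on the mean gene (-0.23), and the TKO call without TKO library 3 (0.34) or WT library 3 (0.34). Usp29, a deubiquitinase gene read in the opposite direction over 238 bins, fell in all 3: by 0.94 without Lbr, by 0.53 without lamins and by 1.1 without both. Gm56178, in the 1 bin that holds the Peg3 start and that Peg3 shares with Usp29, was picked after its values were seen. It rose by 1.08 in QKO cells (adjusted p = 0.00082) and by 0.84 in TKO cells.

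Per bin, the log2 ratio of Peg3 to Usp29 was -0.118, -0.316 and -0.286 in the naive WT libraries. It was 0.229, 0.219 and 0.5 for LBRKO, 0.751, 0.667 and 0.718 for TKO and 1.06, 0.751 and 1.2 for QKO libraries, all above WT. The differences of 0.556, 0.952 and 1.25 each had an exact permutation p of 0.1 (2-sided, the smallest possible; 0.15 adjusted over 6 tests). In EpiLCs the differences were smaller by estimate: -0.179 for LBRKO and 0.272 for TKO, both with libraries that overlapped WT (exact permutation p = 0.5 and 0.2), and 0.441 for QKO, with libraries above WT (exact permutation p = 0.1). This ratio too was chosen after the values were seen. With IGG the ratio was 0.0794 ± 0.21 and with LMNB1 -0.299 ± 0.129 in naive WT cells. Among EpiLCs it was 0.48 ± 0.0263 with IGG in WT cells, beside 0.466 ± 0.101 with LAP2B in QKO cells, so the QKO ratio lay near that of the control antibody. Of the 7 listed genes of the Peg3 cluster 6 fell in LBRKO cells and 6 in QKO cells, where 28.3% and 44.2% of all genes fell, and in TKO cells 1 rose and 1 fell. The neighbours within 500 kb had median changes of -0.777 without Lbr, -0.111 without lamins and -0.576 without both, with 92.5% of them below Peg3 in QKO cells.

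**Figure D4:**
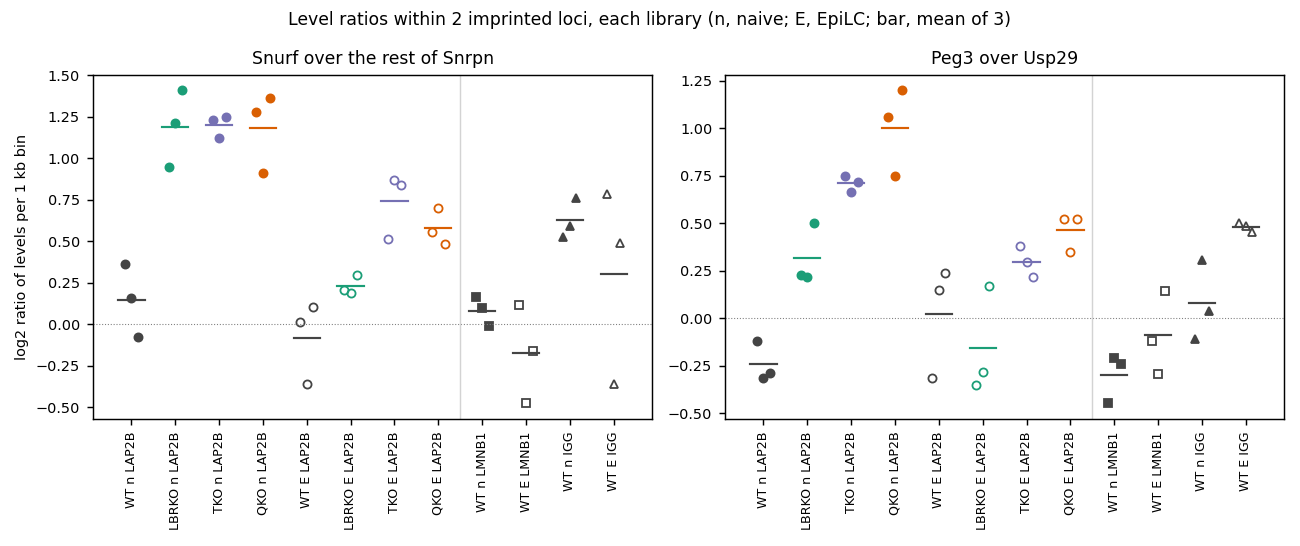
Log2 ratio of levels per 1 kb bin (vertical axis) of Snurf to the rest of Snrpn (left) and of Peg3 to Usp29 (right) in each library (horizontal axis, groups; n naive, E EpiLC; circles LAP2B, squares LMNB1, triangles IGG; bars are means of 3). Every naive mutant LAP2B library lies above every naive WT LAP2B library in both panels.

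The overlapping pair Igf2r and Airn fell modestly in naive mutants. Airn had relative values of 17.9, 17.5 and 19.3 in WT, 12.0, 14.6 and 12.7 for LBRKO, 15.7, 16.9 and 13.2 for TKO and 13.2, 15.3 and 14.5 for QKO cells, so that all mutant libraries lay below WT. Its log2 change was -0.48 ± 0.10 in LBRKO cells (adjusted p = 0.000104), -0.26 ± 0.10 in TKO cells (adjusted p = 0.0352) and -0.34 ± 0.10 in QKO cells (adjusted p = 0.00269). Only the LBRKO call held under every centring on the relative scale, and it was not called on the spike-in scale. Centred on the median level per bin the change was -0.15 in TKO and -0.04 in QKO cells, neither called. Centred on the mean gene the TKO change was 0.07. The TKO call of Airn was also lost without TKO library 3 (-0.16), WT library 1 (-0.27) or WT library 3 (-0.22). Igf2r fell by 0.34 in LBRKO cells (SE 0.11; adjusted p = 0.00758) and by 0.36 in QKO cells (SE 0.11; adjusted p = 0.00317), and had a change of -0.17 that did not pass the test in TKO cells. The QKO change of Igf2r was -0.06 with the per-bin centring and was not called. Without WT library 1 the LBRKO change of Igf2r was -0.26, and centred on the mean gene it was -0.21, neither called. Slc22a2, an organic cation transporter of the cluster named after its values were seen, fell by 0.91 in LBRKO and 0.84 in QKO cells. Of the 6 listed genes of the cluster 6 fell in LBRKO, 4 in TKO and 5 in QKO cells, where 28.3%, 28.1% and 44.2% of all genes fell.

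Igf2 and H19 started from low levels. Igf2 had relative values of 1.92, 1.30 and 1.74 in naive WT, 1.92, 2.62 and 2.58 for LBRKO, 2.04, 2.00 and 1.79 for TKO and 2.27, 2.80 and 1.96 for QKO cells. It rose by 0.50 ± 0.17 in LBRKO cells (adjusted p = 0.0117) and by 0.48 ± 0.17 in QKO cells (adjusted p = 0.0103), where all 3 libraries lay above WT. Without WT library 2, the lowest, these changes were 0.35 and 0.33 and neither was called, and the LBRKO call was also lost without LBRKO library 2 or 3 and the QKO call without QKO library 2. With spike-in scaling Igf2 was called lower in QKO cells, at -0.63 (adjusted p = 0.0298), a call lost in 3 of 6 omissions of 1 library, with a pseudocount of 1 and when the spike-in factor was applied to reads. H19, whose 5 bins held as few as 22 reads in a library, had 0.789, 0.393 and 0.661 in WT and 0.967, 0.818 and 0.867 in QKO cells. The QKO libraries lay above WT, but the change of 0.50 ± 0.24 did not pass the test (adjusted p = 0.0586), and TKO cells were at 0.474, 0.56 and 0.381. H19 was 0.79 ± 0.24 higher in QKO than in TKO cells (adjusted p = 0.00526), a call that held without any 1 library. Kcnq1ot1 passed the test in none of the mutants, with changes of -0.10, 0.06 and 0.18, and its 95% interval in QKO cells ran from -0.03 to 0.40. Centred on the median level per bin, the QKO changes of Kcnq1ot1 and H19 were 0.49 and 0.78, both called. The 12 listed genes of its cluster held 10 that rose in QKO cells, 6 in TKO cells and 5 in LBRKO cells, where 31.7%, 21.7% and 28.5% of all genes rose.

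Peg10 had relative values of 2.58, 2.32 and 2.17 in naive WT, 3.33, 3.64 and 3.40 for LBRKO, 2.39, 2.86 and 2.57 for TKO and 1.77, 1.45 and 2.09 for QKO cells. It rose by 0.54 ± 0.17 in LBRKO cells (adjusted p = 0.00514), and the LBRKO libraries lay apart from all others. It fell by 0.40 in QKO cells (SE 0.17; adjusted p = 0.0257), which was not called without QKO library 2 (-0.27), without WT library 1 or with the per-bin centring (-0.11). Chromosome 6, of which part of the WT cells carry an extra copy, had a median change over its 4101 genes of 0.243 in LBRKO and -0.687 in QKO cells, and the part of this in the Peg10 values was not tested. The 29 neighbours of Peg10 within 500 kb had a median of 0.0331 in LBRKO and -0.963 in QKO cells, where 21 fell and none rose, against 44.2% and 31.7% of all genes. The listed genes of its cluster, Peg10 among them, fell in QKO cells in 10 of 10 cases. In LBRKO cells 3 of the 10 rose and 2 fell, against 28.5% and 28.3% of all genes, and in TKO cells 5 fell, against 28.1%.

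On the spike-in scale the picture was mostly lower. Its values are coverage divided by the reads of the library, times a spike-in factor, so they are not absolute amounts of contact. The median gene moved by -0.627 in TKO and -1.19 in QKO naive cells on the log2 scale, and by 0.206 in LBRKO cells. In QKO cells 7 of 10 imprinted genes fell and none rose, against 75.5% of all genes called, 65.4% lower and 10.1% higher. Meg3 was the only gene of the 10 with a positive estimate, 0.23 (adjusted p = 0.399), while Snrpn was at -2.78 and Igf2r and Airn at -1.52 and -1.51. In TKO cells 5 of 10 were called, all lower, against 49.9% of all genes (2.38% higher, 47.6% lower), and Meg3 was again the only positive estimate at 0.30. In LBRKO cells Igf2 and Peg10 rose by 0.69 and 0.73 and Snrpn fell by 0.58, against 46.4% of all genes (28.3% higher, 18% lower). The Igf2 and Peg10 calls were each lost in 4 of 6 omissions of 1 library and the Snrpn call in 3 of 6, in each case also without LBRKO library 2. The Snrpn call was also lost with only the 2 groups compared in the fit and when the spike-in factor was applied to reads. The median spike-in change of the 10 was -0.994 in QKO, -0.504 in TKO and 0.104 in LBRKO cells.

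**Figure D5:**
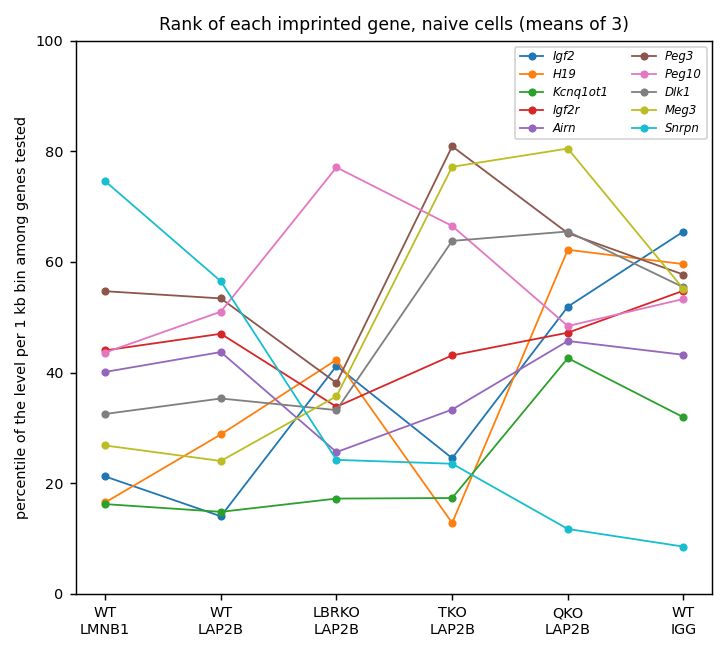
Percentile of the mean level per 1 kb bin of each imprinted gene among all genes tested (vertical axis) in naive cells, for WT LMNB1, WT, LBRKO, TKO and QKO LAP2B and WT IGG (horizontal axis; each line joins the values of 1 gene, 3 libraries a group). Snrpn runs from percentile 74.6 with LMNB1 to 11.7 in QKO LAP2B and 8.51 with IGG, and Meg3 from 24.0 in WT to 80.5 in QKO LAP2B.

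In EpiLCs the relative scale gave fewer calls against WT than in naive cells for LBRKO and QKO, and the same number for TKO. The study did not read LAP2B as a measure of lamina position at this stage, so these values are of LAP2B only. On the relative scale 3 of 10 genes were called in LBRKO EpiLCs (1 higher, 2 lower) against 23.7% of all genes (13.3% and 10.3%). TKO EpiLCs had 4 of 10 called (3 higher, 1 lower) against 18.3% (7.51% and 10.8%), and QKO EpiLCs 3 of 10 (2 higher, 1 lower) against 36% (16.9% and 19.1%). Libraries did not overlap WT at 3, 6 and 5 of the genes, against 38.6%, 36.4% and 49.4% of all genes. In QKO EpiLCs the split was 5 higher and 1 lower with the per-bin centring, against 20% and 16.8% of all genes. It was 6 higher and 1 lower with the mean-gene centring, for which the shares of all genes were not counted. Snrpn had relative values of 29.6, 26.5 and 25.5 in WT, 31.3, 31.9 and 28.8 for LBRKO, 18.8, 18.5 and 20.9 for TKO and 20.3, 20.0 and 20.3 for QKO EpiLCs. It fell by 0.48 in TKO (SE 0.11, adjusted p = 0.00128) and by 0.42 in QKO EpiLCs (SE 0.11, adjusted p = 0.00175). Both calls held under all settings on the relative scale. In LBRKO EpiLCs Snrpn overlapped WT, at 0.17. Snurf passed the test in none of the 3, and its log2 ratio to the rest of Snrpn lay 0.312, 0.821 and 0.662 above WT in LBRKO, TKO and QKO EpiLCs with no overlap of libraries (exact permutation p = 0.1 each, the smallest possible). The mean ratios themselves were 0.23, 0.739 and 0.58, all within the range of the IGG libraries of WT EpiLCs, -0.362 to 0.784.

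Meg3 in EpiLCs had relative values of 5.48, 5.38 and 5.43 in WT, 4.5, 4.35 and 3.81 for LBRKO, 6.75, 7.5 and 7.14 for TKO and 7.26, 6.77 and 6.46 for QKO cells. It fell by 0.36 in LBRKO (adjusted p = 0.0377) and rose by 0.39 in TKO (adjusted p = 0.0323) and 0.32 in QKO cells (adjusted p = 0.0472). Each mutant group lay apart from WT, and TKO and QKO overlapped each other, yet each omission of 1 library ended the TKO and QKO calls, with changes of 0.35 to 0.42 and 0.28 to 0.36, and 5 of 6 omissions ended the LBRKO call. Igf2r rose by 0.41 ± 0.11 in TKO (adjusted p = 0.00669) and 0.29 ± 0.11 in QKO EpiLCs (adjusted p = 0.0371), and Airn by 0.33 in TKO EpiLCs (adjusted p = 0.0196). Without WT library 1 these changes were 0.30, 0.18 and 0.34 and none was called. The QKO call of Igf2r was also lost without any 1 QKO library, and that of Airn without TKO library 2 or 3 or WT library 3. In LBRKO EpiLCs Peg3 fell by 0.48 (adjusted p = 0.00563) and Peg10 rose by 0.46 (adjusted p = 0.0351), and without WT library 3 these were -0.40 and 0.31, not called. The Peg10 call was also lost without LBRKO library 1 or 2 and when libraries were centred on the mean gene. Chromosome 6 had a median change of 0.314 in that comparison.

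The spike-in scale gave another direction in QKO EpiLCs. There 6 of the 10 genes were called, all lower, against 55.8% of all genes (0.117% higher, 55.7% lower), and the median gene moved by -0.733 on the log2 scale. Snrpn was at -1.27 (adjusted p = 3.2e-07), Igf2 at -0.78, Peg10 at -0.74, Kcnq1ot1 at -0.68, Airn at -0.66 (adjusted p = 0.0101) and Igf2r at -0.56 (adjusted p = 0.0329), so that Igf2r was called lower on this scale and higher on the relative scale. The Igf2r call was lost in 5 of 6 omissions of 1 library, and applying the spike-in factor to reads left only the call of Snrpn. In TKO EpiLCs Snrpn alone was called, at -0.73 (adjusted p = 0.0228), against 9.7% of all genes (0.101% higher, 9.6% lower), and the call was lost in 4 of 6 omissions. In LBRKO EpiLCs none of the 10 was called in limma or edgeR, against 9.24% of all genes called in limma. Of the 10, 0 had an unadjusted p under 0.05 in limma, against 15757 of 70381 genes. Applying the factor to reads gave 3 calls.

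Between QKO and TKO EpiLCs no difference passed the test at these genes on the relative scale. None of the 10 genes was called with limma or with edgeR on the recovered reads. Of all genes, limma called 1.2% (0.887% higher, 0.311% lower). None of the 10 had an unadjusted p under 0.05 in limma, against 9417 of 70381 genes. Libraries were apart at 1 gene, Igf2r, against 25.3% of all genes. In naive cells, by contrast, 4 of 10 were called between QKO and TKO (H19 and Meg3 higher, Peg10 and Snrpn lower) against 53.8% of all genes (24.3% higher, 29.6% lower), and the libraries of these 4 did not overlap, against 56.7% of all genes. Centred on the median level per bin, the Peg10 call was lost and 4 genes were higher and 1 lower, against 30.7% and 22.8% of all genes. On the spike-in scale 6 of 10 genes were lower in QKO than in TKO EpiLCs, where 28.3% of all genes were, and the count fell to 0 without QKO library 2 or TKO library 1.

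On the relative scale the genotype effect differed between stages at 4 of the genes. The EpiLC effect minus the naive effect of QKO was 1.19 ± 0.15 for Snrpn (adjusted p = 1.11e-08) and -1.06 ± 0.18 for Meg3 (adjusted p = 5.15e-06), so that both effects were larger in naive cells. It was 0.65 ± 0.16 for Igf2r (adjusted p = 0.000611) and 0.53 ± 0.15 for Airn (adjusted p = 0.00259), which on this scale were lower than WT in naive cells and higher in EpiLCs by estimate. With spike-in scaling both were called lower than WT at both stages. With the per-bin centring the Airn difference was 0.29 and was not called. In all, 4 of 10 genes were called in this interaction (3 higher, 1 lower) against 46.4% of all genes (26.2% and 20.2%). That of TKO held 2 of 10, Igf2r at 0.58 and Airn at 0.59, against 9.43% (5.3% higher, 4.13% lower). Both calls were lost when libraries were centred on the mean gene (0.35 and 0.36), and that of Igf2r also without TKO naive library 3 (0.50) or WT EpiLC library 1 (0.47). The per-bin centring gave 2 higher and 1 lower, against 3.31% and 5.65% of all genes. That of LBRKO held 2 of 10, Snrpn at 0.95 and Meg3 at -0.49, against 20.1% (10.7% higher, 9.35% lower), and the Meg3 call was lost in 10 of 12 omissions of 1 library.

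Between stages of WT cells, LAP2B rose over Igf2, Kcnq1ot1 and Meg3 and fell over Snrpn, 4 of 10 genes against 32.4% of all genes on the relative scale (15.2% higher, 17.2% lower). The libraries of the stages were apart at these 4 genes, against 39.4% of all genes. Igf2 went from 1.92, 1.30 and 1.74 to 2.43, 2.92 and 3.00 (log2 change 0.73 ± 0.17, adjusted p = 0.000851), with no overlap. Its level per bin went from 0.59 to 1.01, where IGG was at 1.12 in naive cells and 1.09 in EpiLCs. Meg3 rose by 0.51 ± 0.13 (adjusted p = 0.00205), Kcnq1ot1 by 0.36 ± 0.11 (adjusted p = 0.00649), and Snrpn fell by 0.35 (SE 0.11, adjusted p = 0.0118). In WT EpiLCs Meg3 was at 1.01 and Kcnq1ot1 at 0.782 per bin with LAP2B, below IGG at 1.15 and 0.935. Without WT naive library 2 the changes of Kcnq1ot1 and Snrpn were 0.30 and -0.24 and were not called, and Snrpn was also not called without WT EpiLC library 3 or when libraries were centred on the mean gene (-0.13). On the spike-in scale Igf2 and Meg3 alone were called, both higher (0.90 and 0.68), against 12.2% of all genes (10.4% higher, 1.85% lower). The Meg3 call, at an adjusted p of 0.0483, was lost in 4 of 6 omissions of 1 library and under 4 other settings, and the Igf2 call without WT EpiLC library 3 (0.74) or with only these 2 groups in the fit (0.89). With LMNB1 none of the 10 was called in limma or edgeR on either scale. Of all genes, limma called 13.6% on the relative scale and 8.22% on the spike-in scale. An unadjusted p under 0.05 in limma was found for 2 and 5 of the 10, against 21278 and 16028 of 70381 genes. The LMNB1 estimates were 0.46 for Igf2, 0.48 for Dlk1, 0.32 for Meg3 and -0.28 for Snrpn. With IGG none of the 10 was called in limma or edgeR on either scale, against 0.502% and 0% of all genes in limma. Here 0 and 7 of the 10 had an unadjusted p under 0.05 in limma, against 9241 and 24238 of 70381 genes. Yet IGG rose by estimate on the spike-in scale, with a median change of 1.06 for the 10 and 0.899 for all genes. EpiLC libraries lay above the naive ones at 9 of the 10, against 38377 of 70381 genes. For Igf2 the IGG estimate on that scale was 0.913, where that of LAP2B was 0.90.

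The wider list of 76 other genes from imprinted clusters gives the surroundings of the 10. On the relative scale in naive cells 22 rose and 28 fell without Lbr, 20 rose and 20 fell in TKO cells, and 28 rose and 37 fell in QKO cells, with medians of -0.0303, -0.0671 and -0.224. As shares of the list, 28.9% and 36.8%, 26.3% and 26.3%, and 36.8% and 48.7% were higher and lower, near the shares of all genes, which were 28.5% and 28.3%, 21.7% and 28.1%, and 31.7% and 44.2%. In QKO cells the largest rises were those of Nnat (1.87 ± 0.25), a membrane protein of neuronal tissue, of Blcap (1.78 ± 0.15), the gene in whose intron Nnat lies, and of H13 (1.71 ± 0.11), a signal peptide peptidase. The largest falls were those of Dcn (-2.19 ± 0.15), a matrix proteoglycan, Tfpi2 (-2.14 ± 0.17), a protease inhibitor of the Peg10 cluster, and Atp10a. In LBRKO cells Mest (1.14 ± 0.14), Cd81 (1.05 ± 0.15) and Mrpl23 (1.04 ± 0.19) rose most, and Snhg14, Atp10a and Peg12 (-1.03 ± 0.24) fell most. Mest lies on chromosome 6, as do the other 3 genes of its cluster, and all 4 rose in LBRKO cells, where 28.5% of all genes rose. In TKO cells Zrsr2-ps1 (1.49 ± 0.28), Phlda2 (0.94 ± 0.28) and Cd81 (0.90 ± 0.15) rose most, and Dcn (-1.23 ± 0.15), Tfpi2 (-0.85 ± 0.17) and Pon3 (-0.84 ± 0.13) fell most. Cd81 is a surface tetraspanin of the Kcnq1ot1 cluster, and Phlda2 a growth-limiting gene of the same cluster. In EpiLCs the counts of the list were 11 higher and 15 lower for LBRKO, 10 and 11 for TKO, and 13 and 23 for QKO cells. These were 14.5% and 19.7%, 13.2% and 14.5%, and 17.1% and 30.3% of the list, where the shares of all genes were 13.3% and 10.3%, 7.51% and 10.8%, and 16.9% and 19.1%.

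Over the 8 LAP2B group means, Igf2r and Airn were most alike, with a Pearson correlation of 0.962 and they share bins. Meg3 and Snrpn ran opposite to each other, at -0.842, and Meg3 and Dlk1 together, at 0.822, below Dlk1 and Kcnq1ot1 on another chromosome, at 0.851. Genes on other chromosomes with a pattern closest to that of Snrpn were Magi2, Hecw1 and Mbd5 (0.993 each), and closest to that of Meg3 were Nat14 (0.992), Plin5 (0.991) and Snord88a (0.991). For H19 they were Or10h28, Or13p9-ps1 and Defb20, at 0.95 to 0.963. The points are 8 means from 24 libraries, the closest genes were taken from all genes, and no test was made.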

How the data were processed

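CUT&RUN libraries for LAP2B (24), LMNB1 (6) and IGG (6) were analysed at the gene level, in groups taken from the sample labels. The authors aligned reads with Bowtie2 2.3.5.1, used SAMtools 1.10 and deepTools, and deposited a coverage signal per gene on GRCm39, in RPKM times a spike-in factor, summed over 1 kb bins (343 of 343 sets of genes within 1 shared bin had equal values). Whole-read counts were recovered from the steps of the deposited signal. Bins per gene came from GENCODE M39 extents, held by 78131 of 78202 genes, while the methods name another release.

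The lowest 0.1 of genes were left out, which left 70381. Log2 values were fitted with limma 3.58.1 in R 4.3.3 over all groups of an antibody, with Benjamini-Hochberg adjustment over all genes. On the relative scale 0.1 was added to each relative value before the log2. On the spike-in scale the constant was 0.1 of a single median, taken over all tested genes and libraries of the antibody. edgeR 4.0.16 on the recovered counts was an alternative. The limma fit was also run on simulated reads in which few genes changed, so that run cannot show how the fit behaves when many genes change, as they did here. The relative scale divides each library by its median gene. Correlations of same-numbered libraries' deviations ran from -0.259 to 0.181, so the replicate numbers were not taken to pair libraries. Replicate pairs differed by 3.34 to 12.3 times sampling noise (chi-square per degree of freedom), and none was a duplicate.

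The 10 genes and the wider list were chosen with earlier results of these data known. Named besides the 10 were, per comparison, the 3 listed genes highest and the 3 lowest among those called, listed genes that share a bin with one of the 10, the 3 genes most like each on other chromosomes, and Lbr, Lmna and Lmnb2. Slc22a2 and the other genes around Meg3 and Peg3 (Gm34081, Gm27528, Gm55095, Mir770, Rtl1, Rian, Mirg, Gm56178) fall outside this rule and were named after their values were seen. Neighbours within 500 kb were counted only. Bins were not split by parental allele.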

Additional observations from a re-analysis of the deposited data

Results flagged for a closer look

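The effect of a genotype on LAP2B differed between EpiLCs and naive cells at 4 imprinted genes, by the interaction term of the limma fit on the relative scale (EpiLC effect minus naive effect, log2). For Snrpn the difference was 1.19 in QKO cells, where the naive effect was -1.62 and the EpiLC effect -0.42, and 0.954 in LBRKO cells, where the naive effect was -0.78 and the EpiLC estimate 0.17. Both held without any 1 library.

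For Meg3 the difference was -1.06 in QKO cells, where the effect was 1.38 in naive cells and 0.32 in EpiLCs. In LBRKO cells it was -0.495, with an adjusted p of 0.0499, and was lost in 10 of 12 omissions of 1 library and with the replicate block.

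For Igf2r the difference was 0.65 in QKO and 0.579 in TKO cells, and for its overlapping partner Airn 0.531 and 0.592. The 2 genes share 29 bins, so these are not separate observations. The Igf2r difference in TKO cells was lost without TKO naive library 3 or WT EpiLC library 1, and the Airn difference in QKO cells was lost when libraries were centred on the median level per bin (0.29). Centring on the mean gene ended both differences in TKO cells and that of Airn in QKO cells. All 3 genotypes are compared with the same WT libraries.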

How the results depend on the processing

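Of 78 calls on the 10 genes over both scales, 36 held without any 1 library and 29 of these also under every other setting. The changes of Snrpn and Meg3 in naive TKO and QKO cells on the relative scale were among the 29. Among values called under either of the settings compared, 2 changed direction: Airn in naive TKO cells went from -0.26 to 0.071 on the relative scale when libraries were centred on the mean gene, and Meg3 in QKO against TKO naive cells on the spike-in scale from -0.0687 to 0.531 when the spike-in factor was applied to reads. The cause was not tested.

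Shares of all genes were counted only for the main fit and the per-bin centring, so the counts below under other settings have no background. The number of the 10 genes called moved as follows on the relative scale. The mean-gene centring gave 7 in place of 4 for TKO naive, 7 in place of 3 for QKO EpiLC and 1 (lower) in place of 2 (both higher) for the TKO stage difference, and the per-bin centring, chosen after seeing the data, gave 6 for QKO EpiLC. The LBRKO stage difference fell from 2 to 1 with edgeR and TMM, without the filter, with a pseudocount of 0.01 or with the replicate block. On the spike-in scale, applying the factor to reads gave 3 in place of 0 for LBRKO EpiLC, 5 in place of 3 for LBRKO naive, 1 in place of 6 for QKO EpiLC (all lower), 0 in place of 1 for TKO EpiLC, and 3 in place of 5 and 0 in place of 6 for QKO against TKO in naive cells and EpiLCs. Fits of only the 2 groups compared gave 3 in place of 5 for TKO naive, 0 in place of 1 for TKO EpiLC, 1 in place of 6 for QKO against TKO EpiLCs and 0 in place of 2 for the WT stage comparison. The latter gave 1 with edgeR, without the filter or with the replicate block. The replicate block gave 3 in place of 6 for QKO against TKO EpiLCs, and over the single genes it ended 6 calls and left 244 results on the same side of the threshold.

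Leaving out 1 library at a time gave ranges of 1 to 2 for the LBRKO and 1 to 4 for the TKO stage difference (4 without WT naive library 2). On the relative scale they were 2 to 5 for TKO naive (2 without TKO library 3), 1 to 3 each for LBRKO, TKO and QKO EpiLC (1 without WT library 3, WT library 1 and WT library 1), 2 to 5 for the WT stage comparison of LAP2B (2 without naive library 2) and 0 to 2 for that of LMNB1 (2 without naive library 2). On the spike-in scale they were 0 to 3 for LBRKO naive (0 without LBRKO library 2), 3 to 6 for TKO naive, 3 to 8 for QKO EpiLC (3 without WT library 1 or 3), 0 to 1 for TKO EpiLC, 3 to 7 for QKO against TKO naive (3 without TKO library 2) and 0 to 9 for QKO against TKO EpiLCs (0 without QKO library 2 or TKO library 1). The WT stage comparison on that scale ran from 0 to 3 with LAP2B (0 without EpiLC library 3), 0 to 5 with LMNB1 (5 without EpiLC library 2) and 0 to 1 with IGG (1 without EpiLC library 3). H19, with as few as 22 reads, is limited most by depth.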
